A study of Mus musculus with 6 samples.

Results

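The genes described here are 10 that supply, break down or carry the cyclic AMP signal of the mouse oocyte: the receptors *Gpr3* and *Gpr12*, the G protein gene *Gnas*, the adenylyl cyclases *Adcy3* and *Adcy9*, the phosphodiesterase *Pde3a*, the protein kinase A subunits *Prkaca*, *Prkar1a* and *Prkar2b*, and the anchoring protein *Akap1*. They were listed by symbol for their roles, though with earlier results of these data known, and all 10 were found among the 17577 genes measured. Germinal vesicle (GV) oocytes of 12-week-old C57BL/6J mice primed with pregnant mare serum gonadotropin were compared between 2 genotypes with 3 libraries each. Bnc1tr/tr mice carry 2 copies of a frameshift allele of *Bnc1*, the gene of the zinc finger protein basonuclin 1, in every cell of the body, so the follicle cells and the hormonal axis carry it too, while their wild-type (WT) littermates carry none. The input of each library was described as a single oocyte, and the libraries of a genotype as biological replicates. Whether each came from its own mouse was not stated, so p-values measure the spread between these libraries.

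A fully grown oocyte stays in the prophase of its first meiotic division as long as its cyclic AMP is high. The constitutively active receptors GPR3 and GPR12 couple through the stimulatory G protein Gs to adenylyl cyclase, and the cyclic AMP made there releases the catalytic from the regulatory subunits of protein kinase A, which then keeps the maturation kinase CDK1 inactive. Cyclic GMP that enters from the surrounding granulosa cells inhibits PDE3A, the main phosphodiesterase of the oocyte, and when it falls PDE3A breaks down cyclic AMP and meiosis resumes.

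Levels are given in FPKM, fragments scaled to transcript length and to the size of the library, so that genes can be compared with each other. The libraries held an estimated 12.7 to 22.2 M fragments (M, mega), read from the spacing of low FPKM values and least certain in WT replicate 3. All 12 oocyte markers were present, with summed levels of 14730 to 16200 FPKM in Bnc1tr/tr and 16410 to 18110 FPKM in WT, 1 marker called higher and 2 lower. The 15 cumulus and granulosa markers summed to 51.3 to 67.1 FPKM in Bnc1tr/tr and 23.7 to 42.9 FPKM in WT, with 3 of 6 tested called higher and *Foxl2* under 0.1 FPKM in every library. The largest part of these sums was *Cyp19a1*, at 27.49, 44.41 and 33.46 FPKM in Bnc1tr/tr and 23.45, 28.98 and 17.41 FPKM in WT. It overlapped between the genotypes and was not called (limma adjusted p = 0.1). The 5 theca and stroma markers summed to 5.50 to 7.53 against 1.4 to 2.09 FPKM, with the 1 tested called higher and *Col1a1* under 0.1 FPKM throughout. The 6 immune markers summed to 1.22 to 52.9 against 1.39 to 3.0 FPKM with 0 of 3 tested called by limma. The 5 endothelial and blood markers summed to 3.69 to 13.0 against 7.62 to 10.04 FPKM with 1 of 2 tested called lower and *Cdh5* under 0.1 FPKM throughout. The macrophage gene *Lyz2* was at 5.81 and 47.97 FPKM in Bnc1tr/tr replicates 1 and 2 and listed at 0 in the other 4 libraries. The immune marker *Cd74* (7.07 and 1.08 FPKM) and the blood marker *Hba-a1* (0.4 and 5.9 FPKM) had the same pattern, while *Cd68* was present in every library. Because of these transcripts, Bnc1tr/tr replicates 1 and 2 are also left out together below. The part of transcripts from other cell types in the results below was not tested. *Bnc1* itself was at 9.04, 6.51 and 5.83 FPKM in Bnc1tr/tr and 13.17, 12.54 and 16.23 FPKM in WT.

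In the comparison of the genotypes, 1 of the 9 members that could be tested was called changed. This was *Prkar2b*, the gene of a type II regulatory subunit of protein kinase A, which was higher in Bnc1tr/tr oocytes. A gene was called when its limma adjusted p was under 0.05 and its log2 fold change of FPKM + 1 exceeded 0.5 in size, and testing required a mean of at least 1 FPKM. By that rule 31.8% of the 10560 tested genes were called changed, 24.1% higher and 7.68% lower in Bnc1tr/tr, and 1 of 9 members stands beside these shares. The balance of calls moved with the scaling, from 75.8% higher as deposited to 63.5% after upper-quartile, 59.3% after median-ratio and 46.6% after quantile scaling. The genotypes did not overlap for 2 of the 9 tested members, *Prkar2b* and *Gnas*, against 46.8% of all tested genes. The median log2 fold change was 0.13 over the 9 members and 0.15 over all tested genes, and 6 of the 9 values were above 0. Among these 6, *Gpr12* reached the mean of 1 FPKM needed for testing only through its Bnc1tr/tr level. Relative to the median of all genes, *Prkar2b* differed by 0.95 and *Gnas* by -0.52. The remaining member, *Adcy3*, had a mean under 1 FPKM, was not tested, and was at or below 0.04 FPKM in every WT library.

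**Figure D1:**
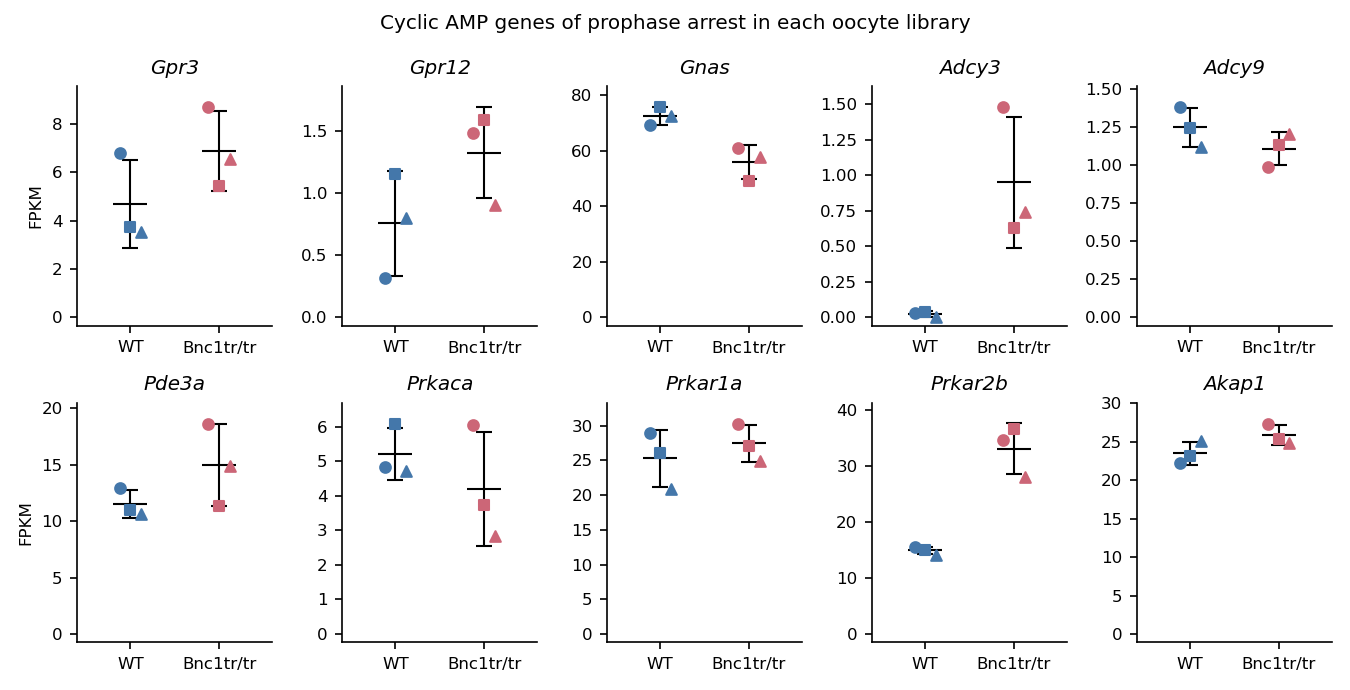
FPKM of the 10 cyclic AMP genes in each library, on linear axes that differ between panels. Circles, squares and triangles are replicates 1, 2 and 3, and bars are the mean ± SD of 3 libraries. *Prkar2b* lay between 14.10 and 15.49 in WT and between 27.96 and 36.59 in Bnc1tr/tr, *Gnas* was lower in every Bnc1tr/tr library, *Adcy3* was near 0 in WT, and the genotypes overlapped in the other panels.

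The signal begins with the receptors. *Gpr3* (Gene ID 14748, chr4:133209340-133212536, minus strand, GRCm38), whose product keeps the cyclase of the mouse oocyte active, was at 8.70, 5.42 and 6.55 FPKM in Bnc1tr/tr replicates 1 to 3 and at 6.81, 3.76 and 3.53 FPKM in WT replicates 1 to 3. Replicate 1 was the highest of both genotypes, and WT replicate 1 exceeded both of the lower Bnc1tr/tr libraries. The means were 6.89 ± 1.67 and 4.70 ± 1.83 FPKM (SD, n = 3), a log2 fold change of 0.49 (SE 0.25, 95% interval -0.078 to 1.07) that did not pass the test (limma adjusted p = 0.17). Without WT replicate 1 the change was 0.74 and was called (limma adjusted p = 0.040). Exons of *Gpr3* overlap *Cd164l2* on the opposite strand, 5.77% of its 31-base words occur in transcripts of other genes, and the library method does not mark strand, so its value is uncertain. *Cd164l2* was far more abundant, at 799 ± 29.3 FPKM in Bnc1tr/tr and 925 ± 90.4 FPKM in WT, and its part in the *Gpr3* value was not tested.

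*Gpr12* (Gene ID 14738, chr5:146582398-146585239, minus strand), the related receptor with the same coupling, was at 1.49, 1.59 and 0.91 FPKM in Bnc1tr/tr and at 0.32, 1.16 and 0.80 FPKM in WT. These levels correspond to an estimated 35 to 60 fragments in Bnc1tr/tr and 11 to 42 in WT, the fewest of any tested member. WT replicate 2 lay above Bnc1tr/tr replicate 3, and the means of 1.33 ± 0.367 and 0.760 ± 0.421 FPKM (SD, n = 3) were not called different (log2 fold change 0.42, SE 0.22, limma adjusted p = 0.18). *Gpr12* passed the filter on low values only through its Bnc1tr/tr level, which favoured a positive value. *Gpr3* made up 83.5% ± 5.49 of the summed receptor level in Bnc1tr/tr and 84.5% ± 9.88 in WT (SD, n = 3), with overlapping genotypes.

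*Gnas* (Gene ID 14683, chr2:174284320-174346744, plus strand), which encodes the Gs alpha subunit that joins the receptors to the cyclases, was the most abundant member in both genotypes. It was at 61.12, 49.08 and 57.68 FPKM in Bnc1tr/tr and at 69.33, 75.72 and 72.33 FPKM in WT. Every Bnc1tr/tr library lay below every WT library, with means of 56.0 ± 6.20 and 72.5 ± 3.20 FPKM (SD, n = 3). The log2 fold change of -0.37 (SE 0.16, 95% interval -0.74 to -0.0037) was not called (limma adjusted p = 0.11). It was called in 2 of 14 alternatives, upper-quartile scaling (-0.51, limma adjusted p = 0.043) and median-ratio scaling (-0.56, limma adjusted p = 0.029). After quantile normalization it was not called (-0.44, limma adjusted p = 0.068). Set against the genes of the inhibitory alpha subunits *Gnai1*, *Gnai2* and *Gnai3* within each library, which a constant factor per library does not alter, the ratio of *Gnas* to their sum was 0.913, 0.952 and 0.931 in Bnc1tr/tr and 0.986, 1.30 and 1.32 in WT, again without overlap. The locus is complex, with 24 annotated transcripts, overlap with *Nespas* and *Gm20721* on the opposite strand, and 19.9% of its words in other genes, so the value sums several products and is uncertain.

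*Adcy3* (Gene ID 104111, chr12:4133103-4213525, plus strand) and *Adcy9* (Gene ID 11515, chr16:4287529-4420498, minus strand) encode membrane-bound adenylyl cyclases, of which adenylyl cyclase 3 is the one best known from rodent oocytes. *Adcy3* was at 1.48, 0.63 and 0.74 FPKM in Bnc1tr/tr and at 0.03, 0.04 and 0.00 FPKM in WT. The Bnc1tr/tr values correspond to an estimated 93, 53 and 63 fragments, and the WT values to an estimated 2.2, 3.2 and 0, where 3 fragments equal 0.0272 to 0.0476 FPKM (counting error only). The difference in means, 0.95 ± 0.462 against 0.0233 ± 0.0208 FPKM (SD, n = 3), was 0.91 on the log2(FPKM + 1) scale and was left untested because the mean over 6 libraries was under 1 FPKM. Without that filter it was called (limma adjusted p = 0.017).

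Exons of *Adcy3* overlap *Cenpo*, a centromere protein gene, on the opposite strand, and 20.1% of its words occur in transcripts of other genes, so its value is uncertain. *Cenpo* was at 20.23, 14.68 and 14.94 FPKM in Bnc1tr/tr and 38.75, 34.25 and 20.18 FPKM in WT (log2 fold change -0.83, SE 0.26, limma adjusted p = 0.037). The part of *Cenpo* in the *Adcy3* value was not tested. *Adcy9* was at 0.99, 1.13 and 1.2 FPKM in Bnc1tr/tr and at 1.38, 1.24 and 1.12 FPKM in WT, with overlapping genotypes and means of 1.11 ± 0.107 and 1.25 ± 0.13 FPKM (SD, n = 3). Its log2 fold change of -0.09 (SE 0.15, 95% interval -0.44 to 0.26) did not pass the test (limma adjusted p = 0.69), and after quantile normalization it was -0.64 and called lower (limma adjusted p = 0.014).

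*Pde3a* (Gene ID 54611, chr6:141249269-141507448, plus strand), the enzyme that ends the arrest by hydrolysing cyclic AMP, was at 18.66, 11.38 and 14.86 FPKM in Bnc1tr/tr and at 12.94, 11.01 and 10.61 FPKM in WT. Bnc1tr/tr replicate 1 was the highest library and Bnc1tr/tr replicate 2 lay within the WT range. The means of 15.0 ± 3.64 and 11.5 ± 1.25 FPKM (SD, n = 3) gave a log2 fold change of 0.33 (SE 0.20, 95% interval -0.13 to 0.79, limma adjusted p = 0.25). It overlaps *Gm28523* on the opposite strand and has 6.13% of its words in other genes. *Pde3a* supplied 64.3% ± 1.85 of the summed *Pde3a* and *Pde3b* level in Bnc1tr/tr and 61.1% ± 7.36 in WT (SD, n = 3), with overlap.

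Across the 6 libraries *Pde3a* and *Gpr3* followed a similar order (Pearson r = 0.899 on log2(FPKM + 1), a description over libraries that share depth and genotype). The ratio of *Pde3a* to *Gpr3* was 2.17 ± 0.0875 in Bnc1tr/tr and 2.61 ± 0.617 in WT, with overlap. The tested genes whose levels ran most like *Gpr3* were *Cep95* (r = 0.990), *Sapcd2* (r = 0.989) and *Cnn3* (r = 0.988), and among those most like *Pde3a* were *Pdlim1* (r = 0.999) and *Sp1* (r = 0.990). In each of these genes, as in *Gpr3* and *Pde3a*, Bnc1tr/tr replicate 1 was the highest library.

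**Figure D2:**
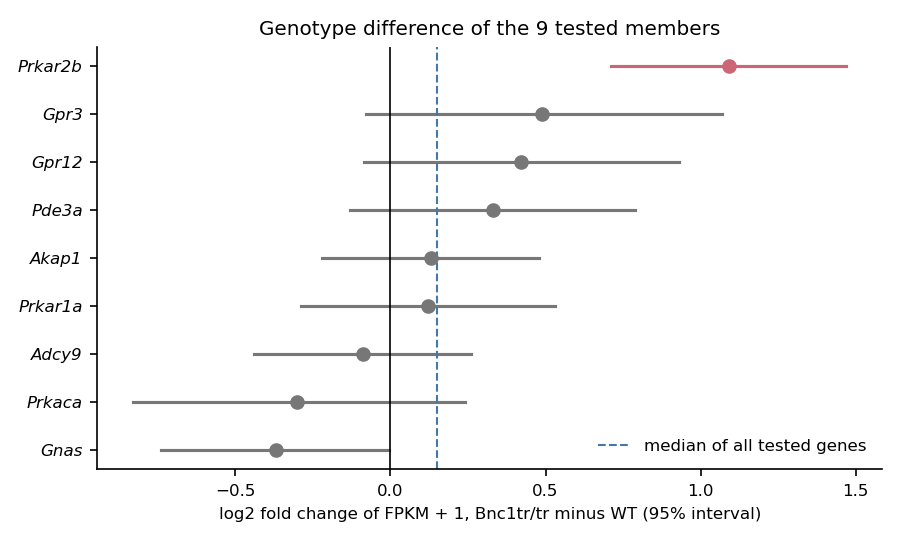
Log2 fold change of FPKM + 1, Bnc1tr/tr minus WT, for the 9 tested members. Points are limma estimates from 3 libraries per genotype and lines their 95% intervals, unadjusted for the number of genes. *Prkar2b* at 1.09 is the called member (red), the lines of 7 others cross 0, that of *Gnas* ends at -0.0037, and the dashed line marks the median of all tested genes at 0.15.

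Protein kinase A holds its catalytic subunits inactive on dimers of regulatory subunits, which release them when they bind cyclic AMP. *Prkar2b* (Gene ID 19088, chr12:31958476-32061296, minus strand) was at 34.53, 36.59 and 27.96 FPKM in Bnc1tr/tr and at 15.49, 15.06 and 14.10 FPKM in WT. The WT libraries lay close together and every Bnc1tr/tr library was well above them. The means were 33.0 ± 4.51 and 14.9 ± 0.712 FPKM (SD, n = 3), a ratio of 2.22 and a log2 fold change of 1.09 (SE 0.17, 95% interval 0.71 to 1.47, limma adjusted p = 0.0014). The values rest on an estimated 780 to 2100 fragments per library, and 0.164% of the words of this gene occur in other genes, all in *Prkar2a*. The call held without replicate 1 (log2 fold change 1.06) or replicate 2 (1.02) of Bnc1tr/tr, and was lost without both, which leaves 1 library against 3 (0.87, limma adjusted p = 0.076).

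*Prkar1a* (Gene ID 19084, chr11:109649405-109669656, plus strand), which encodes the main type I regulatory subunit, was at 30.32, 27.13 and 24.93 FPKM in Bnc1tr/tr and at 29.01, 26.03 and 20.90 FPKM in WT. The genotypes overlapped over most of their range, and the log2 fold change was 0.12 (SE 0.18, 95% interval -0.29 to 0.53, limma adjusted p = 0.65). Its sign turned under other scalings, with -0.058 after median-ratio scaling. *Prkaca* (Gene ID 18747, chr8:83972993-83996443, plus strand), the catalytic subunit alpha, was at 6.05, 3.73 and 2.85 FPKM in Bnc1tr/tr and at 4.84, 6.10 and 4.73 FPKM in WT. Bnc1tr/tr replicate 1 lay among the WT libraries and the other two below them, and the log2 fold change of -0.30 (SE 0.24, 95% interval -0.83 to 0.24) did not pass the test (limma adjusted p = 0.38). After quantile normalization *Prkaca* was called lower (-0.67, limma adjusted p = 0.038).

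Promoters are shown for the regulatory subunit genes among the members, *Prkar2b*, which was called higher, and *Prkar1a*, which was not. The regulatory subunit gene *Prkar2a*, also called higher, is not a member and its promoter is not shown. The member promoters are given because cyclic AMP acts on transcription through CREB-family factors, whose element is TGACGTCA with TGACG and CGTCA as its arms. The windows run from 250 bases before to 50 bases after a RefSeq transcript start (GRCm38.p6), are written in the direction of transcription, and have these letters in capitals on either strand. The RefSeq table holds 2 windows of *Prkar2b* and 6 of *Prkar1a*. Shown are a *Prkar2b* window, chr12:32061228-32061527 (minus strand, 75.0% G+C), and a *Prkar1a* window chosen because it holds the element, chr11:109650612-109650911 (plus strand, 57.0% G+C).
Prkar2b: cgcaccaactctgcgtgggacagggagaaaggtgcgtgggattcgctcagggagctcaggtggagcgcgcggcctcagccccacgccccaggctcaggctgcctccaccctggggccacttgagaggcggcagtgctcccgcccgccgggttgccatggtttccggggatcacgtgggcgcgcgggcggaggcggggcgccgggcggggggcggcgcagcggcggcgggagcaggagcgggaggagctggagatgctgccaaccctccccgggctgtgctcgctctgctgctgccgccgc
Prkar1a: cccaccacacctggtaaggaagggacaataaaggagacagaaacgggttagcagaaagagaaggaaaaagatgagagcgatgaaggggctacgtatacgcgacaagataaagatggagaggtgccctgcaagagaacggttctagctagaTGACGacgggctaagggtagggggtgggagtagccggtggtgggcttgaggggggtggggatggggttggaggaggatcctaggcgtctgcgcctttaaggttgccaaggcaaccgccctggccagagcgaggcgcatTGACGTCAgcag
The *Prkar1a* window shown holds the full element near its end, which contains both arms, and a separate TGACG further upstream. Of the 6 *Prkar1a* windows, 3 hold an arm, among them the 2 with the full element, and 3 hold neither, as do both *Prkar2b* windows. Of 32817 windows in the RefSeq table, 1.79% hold TGACGTCA and 20.8% an arm. Among the 23 windows of the 9 members in that table, 2 overlapping windows of *Prkar1a* hold the full element and 9 windows of 5 members an arm. No binding was measured, and a match describes letters only.

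Summed over the family, the regulatory transcripts lay higher in Bnc1tr/tr, without overlap between the genotypes. The sum of *Prkar1a*, *Prkar1b*, *Prkar2a* and *Prkar2b* was 74.4, 73.7 and 62.1 FPKM in Bnc1tr/tr and 48.1, 48.1 and 40.3 FPKM in WT. *Prkar2b* made up 46.4%, 49.6% and 45.0% of this sum in Bnc1tr/tr and 32.2%, 31.3% and 35.0% in WT. Its ratio to *Prkar1a* was 1.14, 1.35 and 1.12 in Bnc1tr/tr and 0.534, 0.579 and 0.675 in WT, so *Prkar1a* led in every WT library and *Prkar2b* in every Bnc1tr/tr library. *Prkar2a*, the other type II subunit gene, was called higher as well, at 9.53 ± 0.470 against 5.21 ± 1.68 FPKM (SD, n = 3; log2 fold change 0.80, limma adjusted p = 0.021), a call that was lost after median-ratio scaling (0.63, limma adjusted p = 0.058). These ratios are descriptions within libraries and were not tested.

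The catalytic transcripts *Prkaca* and *Prkacb* summed to 6.58, 4.34 and 3.27 FPKM in Bnc1tr/tr and to 5.69, 6.74 and 6.05 FPKM in WT, with overlap. The ratio of the regulatory to the catalytic sum was 11.3, 17.0 and 19.0 in Bnc1tr/tr and 8.45, 7.14 and 6.65 in WT, means of 15.8 ± 3.99 and 7.41 ± 0.930 (SD, n = 3) without overlap. The order depends on which genes count as catalytic. *Prkx*, an X-linked kinase gene whose product also binds type I regulatory subunits, was at 10.83, 9.48 and 7.91 FPKM in Bnc1tr/tr and at 0.92, 1.23 and 0.99 FPKM in WT, 8.99 times higher on average (log2 fold change 2.34, SE 0.17, limma adjusted p = 2.3e-05). With *Prkx* added to the catalytic sum, a choice made after its values were seen, the ratio was 4.27, 5.33 and 5.56 in Bnc1tr/tr and 7.28, 6.04 and 5.72 in WT, the opposite order and again without overlap. That ratio still counts the type II genes, on average 60.7% of the regulatory sum in Bnc1tr/tr and 44.4% in WT. *Pkig*, which encodes an inhibitor of the catalytic subunit, was called higher at 117 ± 13.9 against 74.9 ± 5.24 FPKM (SD, n = 3; limma adjusted p = 0.020), and not after median-ratio scaling (log2 fold change 0.44, limma adjusted p = 0.084).

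**Figure D3:**
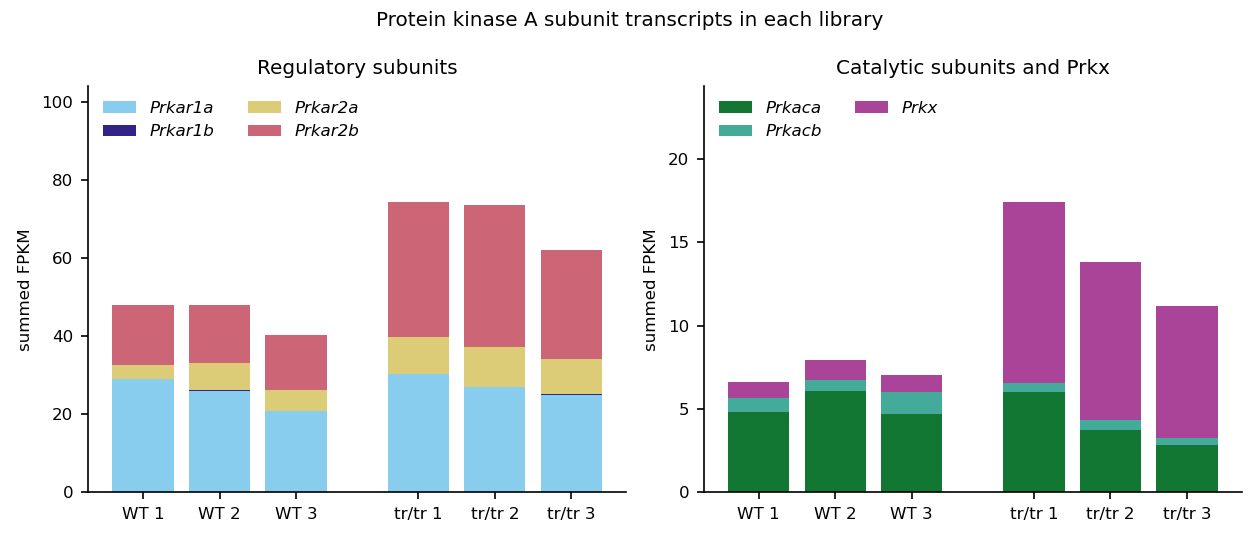
Summed FPKM of protein kinase A subunit transcripts in each library, regulatory on the left and catalytic with *Prkx* on the right (tr/tr is Bnc1tr/tr). The regulatory genes sum to 62.1 to 74.4 FPKM in Bnc1tr/tr and 40.3 to 48.1 FPKM in WT with *Prkar2b* as the part that differs most, the catalytic genes *Prkaca* and *Prkacb* to 3.27 to 6.58 and 5.69 to 6.74 FPKM, and *Prkx* lies near 1 FPKM in WT and between 7.91 and 10.83 FPKM in Bnc1tr/tr.

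*Akap1* (Gene ID 11640, chr11:88830792-88864586, minus strand), which tethers protein kinase A to the outer mitochondrial membrane, was at 27.35, 25.38 and 24.85 FPKM in Bnc1tr/tr and at 22.19, 23.17 and 25.12 FPKM in WT. WT replicate 3 lay within the Bnc1tr/tr range, and the means of 25.9 ± 1.32 and 23.5 ± 1.49 FPKM (SD, n = 3) gave a log2 fold change of 0.13 (SE 0.15, 95% interval -0.22 to 0.48, limma adjusted p = 0.55). Its sign turned under other scalings, to -0.046 after median-ratio scaling.

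Ordered by level in WT oocytes, *Gnas* came first at 72.5 FPKM, followed by *Prkar1a* and *Akap1*, whose ranges overlapped, then *Prkar2b* and *Pde3a*, then *Prkaca* and *Gpr3* with overlapping ranges, then *Adcy9* and *Gpr12* with overlapping ranges, and *Adcy3* last. In Bnc1tr/tr *Prkar2b* stood second, although its range overlapped that of *Prkar1a*, and *Gpr12*, *Adcy9* and *Adcy3* formed a low group in which each neighbour overlapped the next. Among all listed genes *Prkar2b* lay above 76.6% in WT and 83.7% in Bnc1tr/tr, and *Adcy3* above 14.5% and 37.3%. *Gnas* lay above 90.8% and 88.5%, and *Gpr3* above 62.6% and 63.9%.

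The other genes of the pathway were read from a list of 139, of which 123 were in the tables and 72 could be tested. Of these, 17 were called higher and 1 lower, and the median log2 fold change was 0.05. The balance depended on the scaling, with 13 higher and 4 lower after upper-quartile, 10 and 4 after median-ratio, and 5 and 14 after quantile scaling. The called share, 25.0%, stands beside 31.8% over all tested genes. Each group count below is small and stands beside the same 31.8%. A gene that passed the filter on low values only through its Bnc1tr/tr level had to differ. Among the called genes this holds for *Nppc*, *Adcy10*, *Akap11* and *Popdc3*, with WT means of 0.0267, 0.613, 0.76 and 0.64 FPKM. Counts were 18 with all libraries and 9 without Bnc1tr/tr replicate 1, without Bnc1tr/tr replicate 2 or without WT replicate 2, and *Adora2b*, *Nppc*, *Pde4d* and *Prkx* were the 4 that kept their call whichever library was left out. Of the 18, 11 kept their call after median-ratio scaling, and *Pde8a*, *Prkar2a*, *Pkig*, *Akap11*, *Impdh2*, *Popdc3* and *Atf1* did not. After quantile normalization 6 kept it, and *Lpar1*, *Grk5*, *Gnb5*, *Adcy10*, *Gskip* and *Crem* were among those that lost it. Through all 3 scalings 5 kept it: *Adora2b*, *Gng10*, *Nppc*, *Pde4d* and *Prkx*. *Impdh2* lost its call in 12 of 14 alternatives, *Popdc3* in 9, *Atf1*, *Akap11* and *Prkar2a* in 8, *Pkig* in 7 and *Pde8a* in 6.

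Among receptors and their desensitisation, 3 of 5 tested genes were higher and 0 lower. *Adora2b*, a Gs-coupled adenosine receptor, was at 17.52, 10.79 and 11.29 FPKM in Bnc1tr/tr and at 5.43, 5.22 and 2.67 FPKM in WT (log2 fold change 1.4, limma adjusted p = 0.0043), above *Gpr3* in every Bnc1tr/tr library. *Lpar1*, a lysophosphatidic acid receptor (0.79, limma adjusted p = 0.019), and the receptor kinase gene *Grk5* (0.73, limma adjusted p = 0.020) were the other two. Of 16 tested G protein subunit and regulator genes, *Gnb5* was higher (0.76, limma adjusted p = 0.014) and *Gng10* lower (-1.08, limma adjusted p = 0.017), the latter uncertain because 71.9% of its words are shared with the readthrough gene *Gm20503*. *Rgs2*, the most abundant of them in WT, was at 418 ± 33.4 against 317 ± 29.5 FPKM and was not called (limma adjusted p = 0.093). Of 2 tested cyclases beside the members, the soluble cyclase *Adcy10* was higher at 1.61 ± 0.343 against 0.613 ± 0.152 FPKM (limma adjusted p = 0.016) and *Adcy5* was at 1.27 ± 0.329 against 1.5 ± 0.286 FPKM (limma adjusted p = 0.58).

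Of 8 tested phosphodiesterases beside *Pde3a*, 2 were higher. *Pde4d*, which hydrolyses cyclic AMP, was at 4.50 ± 0.310 against 1.84 ± 0.275 FPKM (log2 fold change 0.96, limma adjusted p = 0.0021), and *Pde8a*, also specific for cyclic AMP, was at 8.96 ± 0.9 against 4.92 ± 1.21 FPKM (0.77, limma adjusted p = 0.015). *Pde6d*, which despite its name encodes a carrier of prenylated proteins, had the highest WT level of this list, 557 ± 93.7 FPKM, against 519 ± 77.5 FPKM in Bnc1tr/tr (limma adjusted p = 0.74). Of 11 tested anchoring proteins beside *Akap1*, *Gskip* (log2 fold change 1.0, limma adjusted p = 0.014) and *Akap11* (0.61, limma adjusted p = 0.034) were higher and 0 lower, and *Akap7*, the most abundant, was at 28.3 ± 2.01 against 29.1 ± 3.67 FPKM (limma adjusted p = 0.90). *Gskip* overlaps *Atg2b* on the opposite strand and shares 8.87% of its words.

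In the cyclic GMP arm, 2 of 5 tested genes were higher. *Nppc*, the precursor of the natriuretic peptide that granulosa cells send to hold the oocyte in arrest, was at 11.02, 7.31 and 8.27 FPKM in Bnc1tr/tr and at 0.08, 0.00 and 0.00 FPKM in WT (log2 fold change 3.25, SE 0.18, limma adjusted p = 4.6e-06). It passed the filter on low values only through its Bnc1tr/tr level, so it had to differ. Its receptor gene *Npr2*, which cumulus cells express, was at 0.18, 0.00 and 0.00 FPKM in Bnc1tr/tr and at 0.12, 0.07 and 0.11 FPKM in WT. Of the 15 cumulus and granulosa markers, 7 had the higher mean in Bnc1tr/tr and 8 in WT. *Fshr* (5.25 against 0.35 FPKM), *Cyp11a1* (5.63 against 1.26 FPKM) and *Kitl* (2.46 against 1.14 FPKM) were called higher, and none of the 6 tested was called lower by limma. *Inha* was at 0.693 against 3.42 FPKM, with WT replicates 1 to 3 at 6.78, 3.45 and 0.04 FPKM. *Gja1*, under the filter and not tested, was at 0.503 against 1.32 FPKM, with WT replicates 1 to 3 at 2.77, 1.14 and 0.06 FPKM. The higher WT means of *Inha* and *Gja1* thus came from WT replicates 1 and 2. *Fshr* also passed the filter only through its Bnc1tr/tr level. *Foxl2* was listed at 0 in all but 1 library. The part of such cells in the *Nppc* level was not tested. *Impdh2*, a guanine nucleotide synthesis gene that shares 43.7% of its words with other genes, was the other called (0.57, limma adjusted p = 0.043), and the cyclic GMP kinase gene *Prkg1* was not (0.08, limma adjusted p = 0.79).

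Of 7 tested genes for other cyclic AMP effectors, 3 were higher: the cyclic AMP responsive factor *Crem* (log2 fold change 0.96, limma adjusted p = 0.019), the cyclic nucleotide binding membrane protein *Popdc3* (0.89, limma adjusted p = 0.031) and the CREB-family factor *Atf1* (0.55, limma adjusted p = 0.023), which shares 16.9% of its words with a pseudogene. Of the 14 cell cycle genes listed for prophase arrest, 0 were called by limma, beside 31.8% of all tested genes. Among these 14, 2 had a limma unadjusted p under 0.05, and their median log2 fold change was -0.08. *Ccnb1*, the cyclin partner of CDK1 and the most abundant, was at 1390 ± 93.1 FPKM in Bnc1tr/tr and 1190 ± 220 FPKM in WT (SD, n = 3; limma adjusted p = 0.36).

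**Figure D4:**
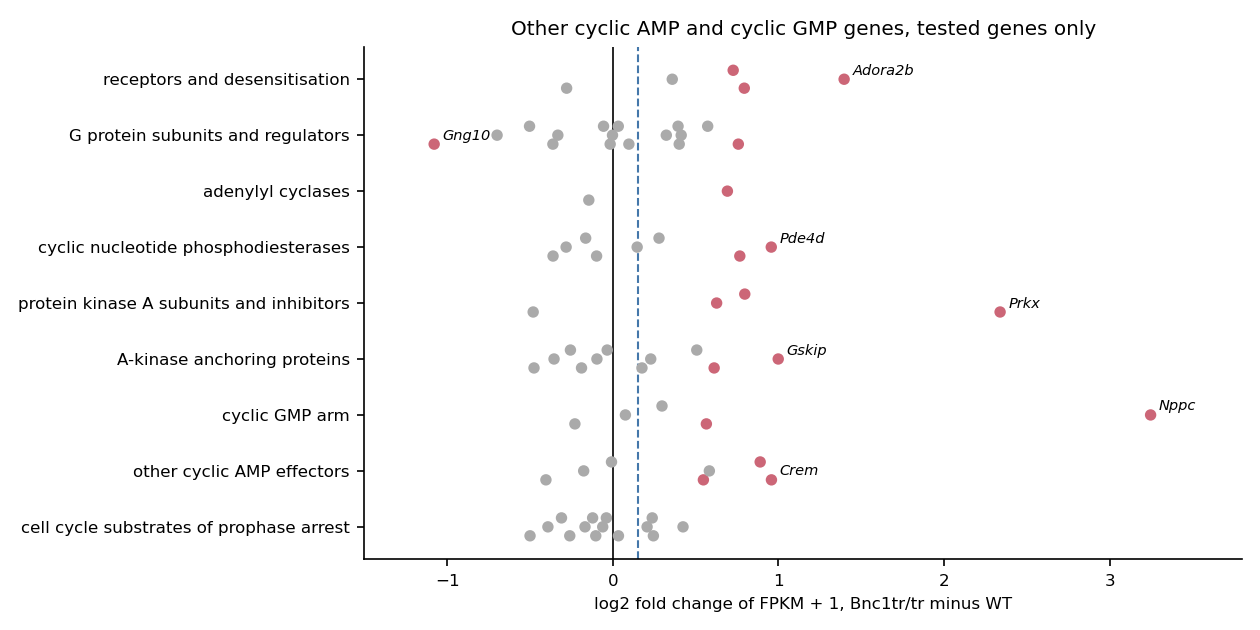
Log2 fold change of FPKM + 1, Bnc1tr/tr minus WT, of the 72 tested pathway genes beside the members, grouped by role, from limma over 3 libraries per genotype. Coloured points are the 17 genes called higher and the 1 called lower, grey points the 54 not called, and the dashed line the median of all tested genes, 0.15. *Nppc* at 3.25 and *Prkx* at 2.34 lie farthest to the right, and the cell cycle genes hold no called point.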

How the data were processed

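The authors deposited a gene table of FPKM for each of the 6 Smart-seq2 libraries, with values rounded to 2 decimals. The submitters' processing notes name HISAT2 2.0.4, Bowtie2 2.2.5, RSEM 1.2.12 and GRCm38.p6, and the annotation and any gene filter are not given in the sources used here. Because FPKM divides by the library's own total, abundant transcripts move the rest, and the amplified cDNA carried no molecular identifiers, so floors cover counting error only. Genotypes and replicate numbers were taken from the labels.

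For the 10560 genes whose mean reached 1 FPKM, values were taken to log2(FPKM + 1), a scale that understates the change of low genes, and tested with limma 3.58.1 (R 4.3.3). P-values were adjusted over all of them by the Benjamini-Hochberg method, and the test was checked on simulated data. Called genes had a log2 fold change beyond 0.5 in either direction at an adjusted p under 0.05. The members, the pathway and marker lists and the rule for named genes were chosen with earlier results of these data known. Named were all members, *Bnc1*, in each pathway list up to 4 called genes with the largest change and the gene highest in WT, and the 3 genes most like *Gpr3* and *Pde3a*, of which 1 is not reported here. Other genes are named only where they overlap a member, enter a sum with one or mark another cell type. Depth was estimated from the spacing of low FPKM values over 934 genes with 1 transcript and entered no test. Positions and the share of 31-base words found in other genes came from GENCODE M21 on GRCm38, and promoters from RefSeq. 25 symbols that a spreadsheet had turned into dates were restored through the Gene ID. The alternatives were a pseudocount of 0.1, no filter, 3 scalings, a log2 threshold of 1, other limma variances, the replicate number as a block, and each library left out. Figures were drawn with matplotlib 3.10.9.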

Additional observations from a re-analysis of the deposited data

How the results depend on the processing

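Over the alternatives, 127 values of the members were recomputed, of which 111 kept their direction and side of the threshold, 6 became called, 1 lost its call and 9 changed sign. Those that changed sign were small: *Gpr12* after quantile normalization (-0.17), *Prkar1a* after upper-quartile (-0.015), median-ratio (-0.058) and quantile scaling (-0.054), without WT replicate 3 (-0.0054) and without Bnc1tr/tr replicates 1 and 2 (-0.009), and *Akap1* after the 3 scalings (-0.0023, -0.046 and -0.044). Among other named genes the sign changed for *Pde6d* (0.018 without Bnc1tr/tr replicate 1 and 0.019 without WT replicate 3), *Akap7* (0.036 without WT replicate 3) and *Prkg1* (-0.053, -0.095 and -0.2 after upper-quartile, median-ratio and quantile scaling, and -0.081 without WT replicate 3), and leaving out each library in turn gave ranges of -0.0054 to 0.22 for *Prkar1a*, -0.23 to 0.019 for *Pde6d*, -0.14 to 0.036 for *Akap7* and -0.081 to 0.16 for *Prkg1*. Of the 18 called pathway genes, 2, *Nppc* and *Prkx*, kept their call in all of these settings.

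Quantile normalization gave 3 called members, and dropping the filter or scaling by the upper quartile or the median ratio gave 2. The direction of all calls moved with scaling: 75.8% were higher as deposited, 63.5% after upper-quartile, 59.3% after median-ratio and 46.6% after quantile scaling, with medians of 0.15, 0.02, -0.02 and -0.10. Counts of genes lower were then 1231, 1394 and 1877, and 1637 were higher after quantile normalization. With a log2 threshold of 1, 1677 genes were called, 1418 higher and 259 lower, with 4 of the pathway list. Leaving out each library gave 2323 to 3539 changed, 1905 to 2498 higher, 418 to 1041 lower, 1 to 2 members and 9 to 18 pathway genes, and a difference in the regulatory to catalytic ratio of 6.73 to 10.6 against 8.35 with all libraries. Chosen after seeing the data, leaving out Bnc1tr/tr replicates 1 and 2 together gave 880 changed genes, 770 higher and 110 lower, 2 pathway genes, 0 members called by limma (2 with an unadjusted p under 0.05) and a ratio difference of 11.6. With 1 library left in that genotype, its spread was assumed to equal that of WT. Counting *Prkx* as catalytic, also chosen then, gave -1.29. Causes of the differences between these settings were not tested.

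Whether the replicate numbers mark shared litters was not stated. The deviations of same-numbered libraries correlated at 0.278, -0.034 and 0.124, not above 0.1 in every pair, so the numbers were not used to pair libraries, and Bnc1tr/tr replicate 2 correlated best with WT replicate 3 (0.161). Fitted with a replicate block, 3733 genes were called, 2781 higher and 952 lower, and *Prkar2b* was again the called member (limma adjusted p = 0.0018).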
